A study of Arabidopsis thaliana with 12 samples.

Results

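Transcript levels in whole Arabidopsis thaliana seedlings were compared after 4 h in liquid medium with cycloheximide (CHX) and after 4 h in the same medium without it (MOCK). The genes described are the 14079 of 33602 loci whose level averaged at least 5 RPKM (reads per kilobase, relative to library size) over the 6 columns of the expression table. The series holds 12 libraries in 6 groups of 2, and each group is represented by 1 pooled column. CHX seedlings were wild type of accession Columbia in liquid MS medium with cycloheximide at 10 µg/ml, and MOCK seedlings were the same wild type in that medium alone. The untreated groups were lba1, labelled as a homozygous UPF1 mutant, upf3-1, labelled as a homozygous UPF3 mutant, the double mutant lba1 upf3-1, and wild type (WT). All plants were 11 days old and had grown under continuous light on 1/2 MS medium with 2% sucrose. The labels give neither the number of seedlings behind a library nor whether the libraries of a group came from separate cultures.

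Cycloheximide stops the ribosome during elongation, so that translation halts while transcription continues. Nonsense-mediated decay (NMD), the pathway that removes mRNAs with early stop codons, depends on translation, and the drug is commonly used to block it. The same drug prevents the synthesis of short-lived repressor proteins and of mRNA decay factors, and genes whose mRNA rises when protein synthesis is blocked have long been described as superinduced. Genes that respond to auxin, jasmonate, wounding or touch within minutes belong to that group in plants.

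Depth was estimated at 85.2 M reads for CHX and 87.4 M for MOCK, and the other columns lay between 82.6 M and 91.0 M. The 95% counting interval of a difference, on the log2 scale, was plus or minus 0.10 at the median of the described genes and 0.21 at the 95th percentile. With 1 column per group there is no replicate check, no spread can be estimated and no test across samples is possible, so that a difference is described by its size alone. The labelled tissue was checked through its markers: light-harvesting and photosystem transcripts summed to 5280 RPKM in CHX and 21270 RPKM in MOCK, while 19 of 21 root tissue markers lay under the minimum.

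Differences are given as CHX minus MOCK on the scale of log2(RPKM + 0.5), which understates the change of low genes, and higher or lower stands for a difference of 2-fold or more. The median level of the described genes was 7.78 RPKM in CHX and 13.2 RPKM in MOCK, and the median difference was −0.81. The 100 most abundant loci of each column held 26.9% of the summed RPKM in CHX and 16.5% in MOCK. When the columns were rescaled without the 100 most abundant loci, the median difference was −0.725. RPKM are shares of a library and do not give the amount of RNA per seedling. Changes are therefore also given relative to the median, after 0.81 was added to every difference, and are then called scaled.

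As deposited, 1870 genes (13.3%) were higher in CHX and 6209 (44.1%) were lower. After scaling the split was nearly even, with 3293 genes (23.4%) higher and 3040 (21.6%) lower. Counts in the gene lists below stand against these shares. The distribution had a longer tail on its upper side. The 1st and 99th percentiles of the difference as deposited were −4.51 and 5.03, and the extremes were −8.04 and 9.34. At least 4-fold higher were 1021 genes (7.25%), and at least 4-fold lower were 2521 genes (17.9%).

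Of the 12 genes with the highest difference, 6 encode transcription factors of the AP2/ERF class, a plant family that binds DNA downstream of ethylene, jasmonate and stress. BHLH92, a basic helix-loop-helix factor, headed the order at 956 RPKM in CHX and 0.98 RPKM in MOCK, a difference of 9.34. ERF13 followed at 1055 RPKM in CHX, against 1.47 RPKM in MOCK. ORA47, an activator of jasmonate synthesis genes, was at 645 RPKM in CHX, against 1.34 RPKM in MOCK. These mRNAs were near absent in MOCK and among the abundant ones in CHX. RRTF1, a redox-responsive member of the family, had 1025 RPKM in CHX and 2.63 RPKM in MOCK, but 64.0% of its exon length overlaps another locus, and the library kit does not mark the strand. The remaining AP2/ERF members of the 12 were AT5G21960, AT2G20350 and AT1G33760, with differences of 8.24, 8.12 and 7.96. JAZ7, a jasmonate repressor, and GH3.1, a member of the auxin-responsive GH3 family, stood at 7.71 and 8.56. SESA1, which encodes a seed storage albumin, was at 795 RPKM in CHX, against 2.45 RPKM in MOCK and 0.017 RPKM in untreated WT. AT1G30190, annotated as a cotton fiber protein, and AT1G68250, which has no annotated function, made up the 12 at 8.77 and 8.19.

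The 12 genes at the other end encode proteins of quite different kinds, several of them secreted. LTP2, LTP5 and LP1 encode lipid transfer proteins of the cell wall and cuticle. LTP2 was at 0.50 RPKM in CHX and 264 RPKM in MOCK, the lowest difference of all at −8.04, and LTP5 and LP1 followed at −7.21 and −7.02. RD22, a dehydration-responsive gene with a BURP domain, had 0.62 RPKM in CHX and 154 RPKM in MOCK. COR15A, which encodes a chloroplast protein of freezing tolerance, had 1.29 RPKM in CHX, 190 RPKM in MOCK and 15.4 RPKM in WT. BIP1, an HSP70 chaperone of the endoplasmic reticulum, was at 2.27 RPKM in CHX, against 254 RPKM in MOCK. ESM1, a lipase-like protein that modifies glucosinolate breakdown, was lower by 6.66 on the log2 scale. For these genes the CHX level was under 5 RPKM while every MOCK level exceeded 100 RPKM. The other members of the 12 were AT1G09310, AT5G42530, AT2G25510, AT1G13930 and AT2G05540, at differences between −7.75 and −6.46. WT levels lay on either side of the MOCK levels. LTP2 and BIP1 were at 50.1 and 105 RPKM in WT, under MOCK, whereas AT5G42530 was at 508 RPKM in WT and 159 RPKM in MOCK.

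The most abundant mRNAs of the CHX column belonged to touch and stress responses. CML12, a calmodulin-like protein also known as TCH3, was at 6086 RPKM in CHX, against 1037 RPKM in MOCK and 58.2 RPKM in WT. TCH4, a cell wall xyloglucan endotransglucosylase, was at 5365 RPKM in CHX, 1150 RPKM in MOCK and 87.6 RPKM in WT. XTH18, of the same enzyme family, was at 3757 RPKM in CHX, 454 RPKM in MOCK and 11.9 RPKM in WT. Among these 3 wild-type columns each gene stood highest in CHX and lowest in WT. AT4G27280, a calcium-binding EF-hand protein, reached 2800 RPKM in CHX, against 208 RPKM in MOCK. OM66, an outer mitochondrial membrane protein of the retrograde response, reached 2647 RPKM in CHX, against 381 RPKM in MOCK. ERF105 reached 2597 RPKM in CHX and 81.2 RPKM in MOCK, although all of its exon length (100%) overlaps another locus. In MOCK the order was led by RBCS1A, a small subunit gene of Rubisco, at 1104 RPKM in CHX and 3068 RPKM in MOCK.

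**Figure D1:**
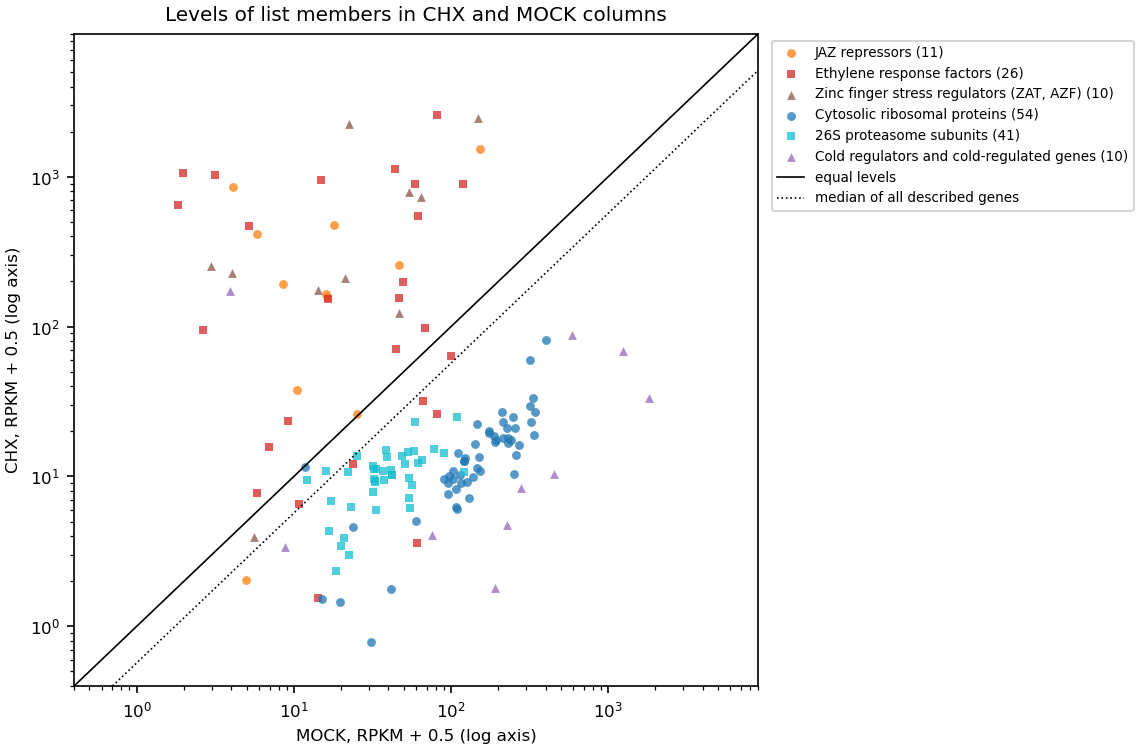
Level in CHX (y axis) against level in MOCK (x axis), both as RPKM + 0.5 on log axes, for the described members of 6 gene lists, 1 point per gene. Most JAZ, ERF and ZAT genes lie above the solid line of equal levels, and 53 of 54 cytosolic ribosomal protein genes lie at least 2-fold below it. CBF2 is the only described gene of the cold list above the line.

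Jasmonate signalling runs through JAZ proteins, which repress transcription until the hormone triggers their degradation by the proteasome. Of the 12 JAZ genes, 11 were described, and 9 were higher in CHX both as deposited and after scaling, with a list median of 3.32. JAZ7 was at 855 RPKM in CHX and 3.59 RPKM in MOCK, JAZ8 at 413 RPKM in CHX and 5.29 RPKM in MOCK, and JAZ5 at 476 RPKM in CHX and 17.43 RPKM in MOCK. JAZ11 went the other way, at 1.53 RPKM in CHX and 4.45 RPKM in MOCK, and is not 2-fold lower after scaling. The family thus spanned differences between −1.29 and 7.71.

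Genes of jasmonate synthesis and output were split, with 10 of 19 higher and 7 lower, or 6 lower after scaling. Higher were LOX3 and LOX4, lipoxygenases that start the pathway, and OPCL1, a ligase that activates a precursor. LOX2, also a lipoxygenase, and the allene oxide cyclases AOC2 and AOC4 were lower, by 2.32, 2.225 and 2.46. LOX3 was at 410 RPKM in CHX and 8.27 RPKM in MOCK, and OPCL1 at 1627 RPKM in CHX and 34.6 RPKM in MOCK. Lowest was ST2A, a sulfotransferase that inactivates hydroxyjasmonate, at 2.81 RPKM in CHX, against 136 RPKM in MOCK and 2.52 RPKM in WT. The CHX level of ST2A was therefore close to that of untreated plants, and its difference changes sign, to 0.13, with WT in the place of MOCK.

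The lists of stress transcription factors showed large shares of higher genes, against the 13.3% of all described genes. All but 1 of the 10 described ZAT and AZF zinc finger genes were higher, 9 of 10, with a median of 3.75. ZAT7 was at 2241 RPKM in CHX and 21.8 RPKM in MOCK, AZF1 at 254 RPKM in CHX and 2.48 RPKM in MOCK, and AT3G53600 at 227 RPKM in CHX and 3.55 RPKM in MOCK. Among 25 WRKY genes, whose products bind the W-box of defence promoters, 17 were higher and 3 lower (19 and 2 after scaling), with a median of 1.98. WRKY46 was at 880 RPKM in CHX and 10.11 RPKM in MOCK, WRKY30 at 483 RPKM in CHX and 9.96 RPKM in MOCK, and WRKY38 at 52.2 RPKM in CHX and 0.34 RPKM in MOCK. At the low end WRKY45 had 0.90 RPKM in CHX and 13.9 RPKM in MOCK. Ethylene response factors divided along similar lines, with 16 of 26 higher and 4 lower, and with 19 and 2 after scaling. RAP2.3, a group VII factor that is degraded when oxygen is present, was the lowest of them at 3.099 RPKM in CHX and 60.3 RPKM in MOCK.

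Calmodulin-like and touch genes were higher in 9 of 12 cases, with a median of 2.39, and none was lower, on either scale. All but TCH4, a cell wall enzyme gene higher by 2.22, are annotated as calmodulin, calmodulin-like or EF-hand calcium-binding proteins. CML37 was at 1451 RPKM in CHX and 13.4 RPKM in MOCK, and CML38 at 1005 RPKM in CHX and 33.0 RPKM in MOCK. AT3G01830 was at 199 RPKM in CHX and 7.36 RPKM in MOCK, with 58.1% of its exon length overlapped.

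Early auxin genes did not move as a block. Aux/IAA genes encode short-lived repressors of auxin responses, and of 20 described 4 were higher and 7 lower as deposited, but 9 higher and 2 lower after scaling. IAA6 stood out at 105 RPKM in CHX and 1.06 RPKM in MOCK, and IAA3 and IAA19 were higher by 2.54 and 2.19. IAA27 was the lowest, at 1.52 RPKM in CHX and 10.5 RPKM in MOCK. GH3 enzymes attach amino acids to hormones, and 4 of 9 were higher as deposited and 5 after scaling. GH3.1 was at 336 RPKM in CHX and 0.39 RPKM in MOCK, GH3.3 at 397 RPKM in CHX and 51.7 RPKM in MOCK, and GH3.12, which acts on benzoates in salicylic acid responses, at 93.4 RPKM in CHX and 3.00 RPKM in MOCK. GH3.6 was at 4.66 RPKM in CHX and 31.3 RPKM in MOCK. Of 15 described SAUR genes, small auxin-induced growth genes, 8 were lower as deposited and 6 after scaling. Over the wider annotated family of 31 described SAUR-like genes 14 were lower and 5 higher, and the scaled median was −0.10, so the family as a whole lay near the other genes, of which 44.1% were lower. SAUR78 was the 1 gene higher as deposited, at 449 RPKM in CHX and 198 RPKM in MOCK. Another 16 genes of the SAUR list lay under the minimum.

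Type-A response regulators, which dampen cytokinin signalling, were described for 6 of 10 genes. ARR17 was at 55.9 RPKM in CHX and 0.46 RPKM in MOCK, ARR5 at 16.2 RPKM in CHX and 1.67 RPKM in MOCK, and ARR7 at 72.5 RPKM in CHX and 12.8 RPKM in MOCK. ARR8 had 1.53 RPKM in CHX and 6.07 RPKM in MOCK, a difference that falls short of 2-fold after scaling.

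The ACC synthase genes ACS2, ACS6, ACS7, ACS8 and ACS11, whose products make the precursor ACC, were the 5 higher ones among 19 genes of ethylene synthesis and signalling, on both scales. Lower were 8 of the 19 as deposited and 5 after scaling. Over all described genes 13.3% were higher and 44.1% lower as deposited, and 23.4% and 21.6% after scaling. The counts of lower genes lie near these shares and are no result about the list. ACS8 led the higher genes at 409 RPKM in CHX, against 18.9 RPKM in MOCK and 0.46 RPKM in WT. ETR2, an ethylene receptor, and EIL1, a transcription factor of the pathway, were lower by 2.96 and 2.28.

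Immune genes upstream and downstream in salicylic acid signalling were higher as well, 16 of 23 (17 after scaling) with a median of 2.81. SARD1 and CBP60G, which activate the salicylic acid synthesis gene ICS1, were at 246 RPKM in CHX against 2.43 RPKM in MOCK, and at 746 RPKM in CHX against 12.8 RPKM in MOCK. GRX480, a glutaredoxin that links salicylic acid to jasmonate responses, was at 1082 RPKM in CHX and 8.74 RPKM in MOCK. ACD6, a membrane protein that promotes salicylic acid signalling, went the other way at 0.25 RPKM in CHX and 11.8 RPKM in MOCK.

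NLR proteins are intracellular immune receptors. Of the 24 NLR genes described, 14 were higher and none was lower, and 19 were higher after scaling. VICTR was at 73.6 RPKM in CHX and 5.78 RPKM in MOCK, and WRR4, which recognises white rust, at 167 RPKM in CHX and 14.8 RPKM in MOCK. The annotated TIR-NBS-LRR family, counted from the reference descriptions rather than from the list, showed a median of 2.52 with 31 of 37 genes higher and none lower. That was the highest median among the 125 annotated families with at least 10 described genes. The CC-NBS-LRR family had a median of 0.25, with 3 of 14 genes higher. NLR genes lie in clusters of similar copies, and how reads shared between copies were counted is not given in the sources used here.

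**Figure D2:**
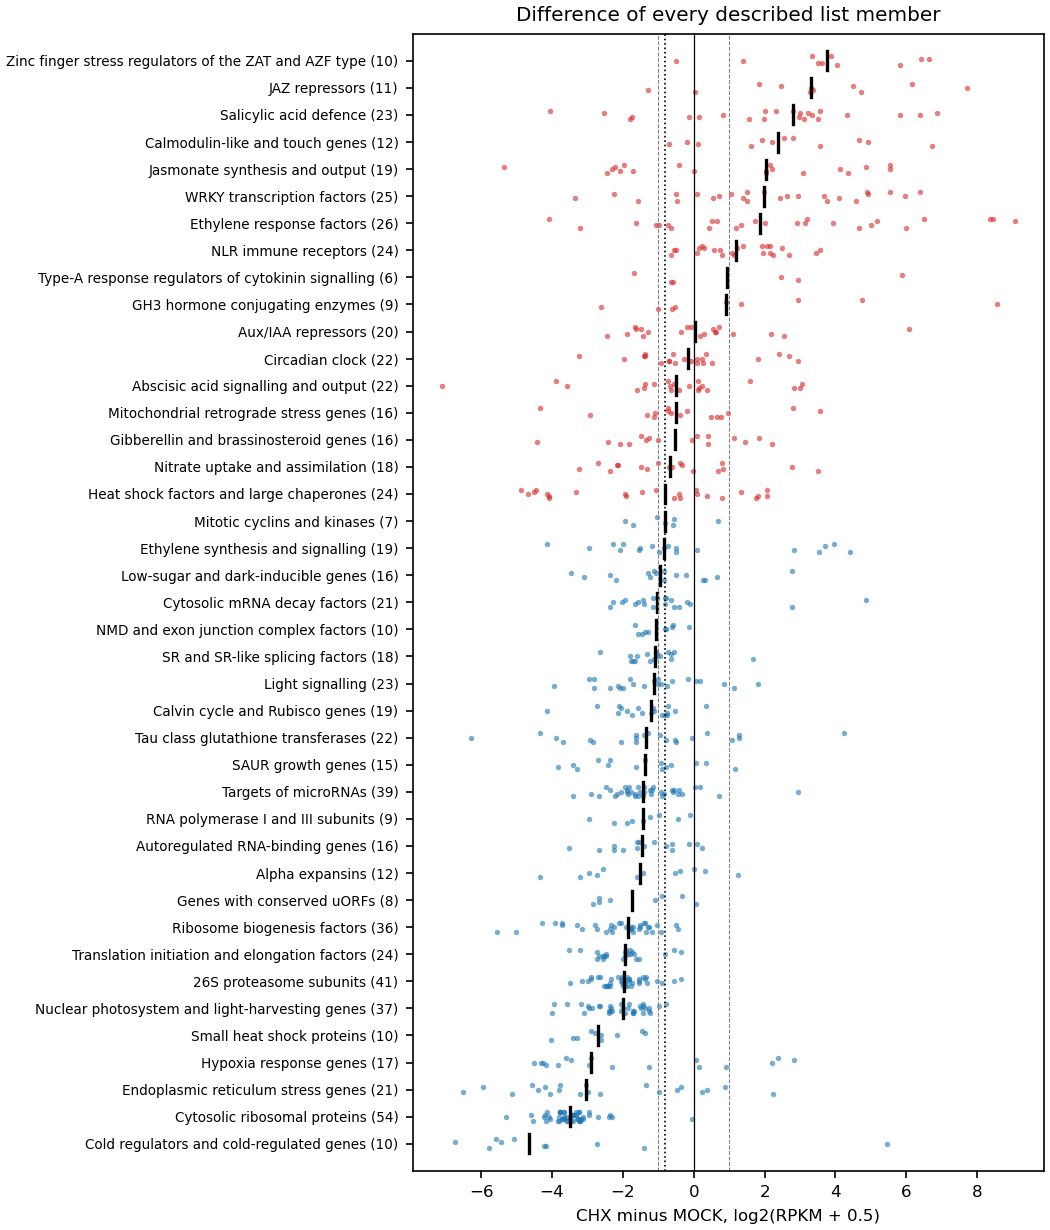
CHX minus MOCK on log2(RPKM + 0.5) for every described member of 41 gene lists (1 dot per gene, number of genes in brackets), sorted by the list median (black bar). The dotted line marks the median of all described genes at −0.81, dashed lines mark 2-fold, and lists with a median above the dotted line are red and the others blue.

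The machinery of translation was mostly lower. Of 54 described genes for cytosolic ribosomal proteins 53 were lower, as deposited and after scaling, with a median of −3.48, and their summed level was 845 RPKM in CHX and 9065 RPKM in MOCK. AT5G39850, a ribosomal protein S4 gene, was at 0.29 RPKM in CHX and 30.4 RPKM in MOCK. AT2G37190, of the L11 family, was at 9.84 RPKM in CHX and 250 RPKM in MOCK, and RPL3B at 1.28 RPKM in CHX and 41.1 RPKM in MOCK. RPL18AA alone was not lower, at 11.1 RPKM in CHX and 11.4 RPKM in MOCK, with 35% of its exon length overlapped. Many ribosomal proteins are encoded by near-identical gene copies, so that values of single copies are uncertain. In whole seedlings, fewer cells of a type and less RNA per cell cannot be told apart.

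Factors that assemble ribosomes in the nucleolus were lower in 33 of 36 cases, and in 18 after scaling. AT5G27120, a NOP56-like protein of the snoRNA particle, was at 1.096 RPKM in CHX and 74.8 RPKM in MOCK. FIB2, a fibrillarin that methylates ribosomal RNA, was at 1.75 RPKM in CHX and 72.4 RPKM in MOCK, and NOP56 at 5.94 RPKM in CHX and 124 RPKM in MOCK. The small nucleolar RNAs that guide these proteins moved with them, since 20 of 21 snoRNA loci were lower, at a median of −4.15. Most snoRNAs carry no poly(A) tail, and their levels in libraries enriched for poly(A) RNA may reflect host or precursor transcripts. RNA polymerase subunits and TATA-binding proteins, taken as 1 list, were lower in 6 of 9 cases and in 3 after scaling, among them NRPA1 and NRPA2, the large subunits of RNA polymerase I, at −2.95 and −2.25, and the TATA-binding protein gene TBP1 at −1.88. These are the 3 that were also lower after scaling.

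Translation factors were lower in 21 of 24 cases, and in 16 after scaling, with a median of −1.94. ELF5A-2, an elongation factor, was at 30.6 RPKM in CHX and 353 RPKM in MOCK, TCTP, a conserved growth regulator, at 70.0 RPKM in CHX and 652 RPKM in MOCK, and EIF4A-2, an RNA helicase of initiation, at 15.9 RPKM in CHX and 109 RPKM in MOCK. None of the 24 was higher. Subunits of the 26S proteasome, which degrades ubiquitin-tagged proteins, were lower in 38 of 41 cases, and in 28 after scaling, with the narrow range of −3.48 to −0.35. RPT3, an ATPase of its cap, was at 10.3 RPKM in CHX and 120 RPKM in MOCK. PAF1 and PAF2, copies of an alpha subunit, were lower by 3.15 and 2.97, with 65% of the exon length of PAF2 overlapped.

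Chaperones of the endoplasmic reticulum and the factors that control them were mostly lower. Of 21 genes in this list 14 were lower (13 after scaling), with a median of −3.05. BIP2, the sister of BIP1, was at 3.78 RPKM in CHX and 262 RPKM in MOCK, and the calnexin CNX1 at 6.85 RPKM in CHX and 256 RPKM in MOCK. The 1 gene higher as deposited was BZIP60, the transcription factor activated by IRE1 splicing when unfolded proteins accumulate, at 696 RPKM in CHX, 148 RPKM in MOCK and 16.0 RPKM in WT.

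The list of heat shock factors and large chaperones was split, with 12 of 24 genes lower and 5 higher as deposited, and 10 lower and 7 higher after scaling. The 12 lower genes lie near the 44.1% of all described genes, and the 10 after scaling stand against 21.6%. HSP81-2 and HSP81-1, which encode HSP90 proteins, were at 9.76 RPKM in CHX against 300 RPKM in MOCK, and at 3.67 RPKM in CHX against 105 RPKM in MOCK. HSC70-1 was at 44.9 RPKM in CHX and 1028 RPKM in MOCK. HSFA8, a heat shock transcription factor, was at 83.6 RPKM in CHX and 19.4 RPKM in MOCK, and all 5 genes higher as deposited encode heat shock factors.

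Cold genes were divided in a like way. CBF2, which binds and activates the cold-regulated genes, was at 172 RPKM in CHX, against 3.42 RPKM in MOCK and 1.74 RPKM in WT. The other 9 described genes of the cold list were all lower as deposited, and 8 of them after scaling. COR47, a dehydrin, was at 32.8 RPKM in CHX, against 1823 RPKM in MOCK and 109 RPKM in WT. COR413-PM1, a membrane protein, was at 4.25 RPKM in CHX, against 225 RPKM in MOCK and 104 RPKM in WT. CBF1, CBF3 and CBF4 lay under the minimum, and like CBF2 they had higher values in CHX. CBF1 was at 19.9 RPKM in CHX and 0.20 RPKM in MOCK, CBF4 at 11.9 RPKM in CHX and 0.12 RPKM in MOCK, and CBF3 at 2.55 RPKM in CHX and 0.78 RPKM in MOCK. GOLS2 and GOLS3, also under the minimum, differed by 2.15 and −1.98.

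Small heat shock protein genes were lower in 10 of 10 cases, with a median of −2.70, while MOCK minus WT had a median of 4.16 for the same genes. Their level in CHX thus lay between MOCK and WT for most of them, and with WT in the place of MOCK the list median turns to 1.195. AT5G51440 was at 17.2 RPKM in CHX, 173 RPKM in MOCK and 10.4 RPKM in WT. AT2G29500 was at 5.32 RPKM in CHX, 60.8 RPKM in MOCK and 8.90 RPKM in WT, and AT1G07400 at 1.68 RPKM in CHX, 35.4 RPKM in MOCK and 2.75 RPKM in WT.

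**Figure D3:**
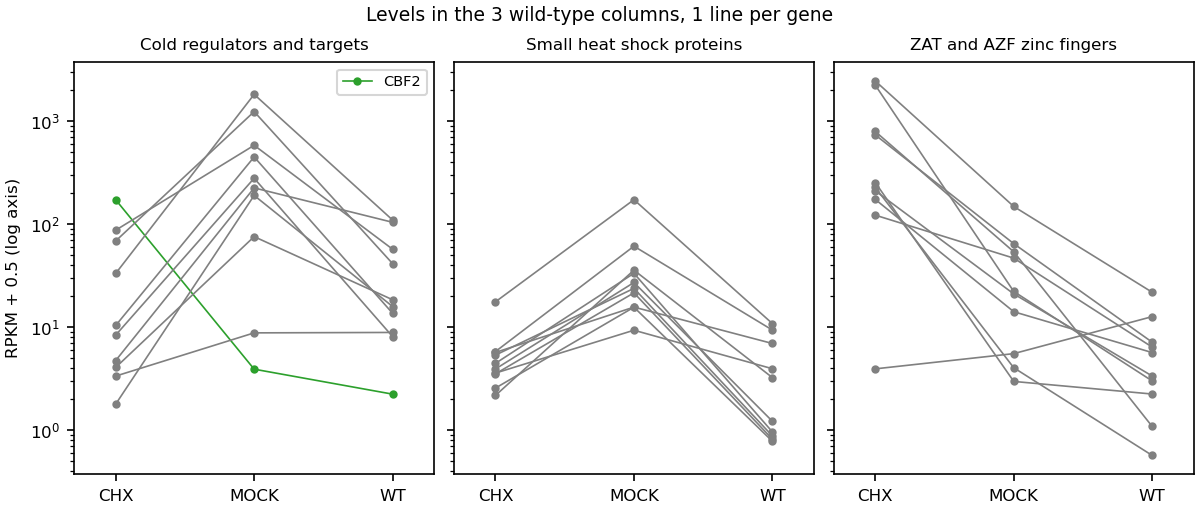
Levels as RPKM + 0.5 on a log axis in the CHX, MOCK and WT columns, with 1 line per described gene of the cold, small heat shock protein and ZAT/AZF lists. Cold-regulated and small heat shock genes peak in MOCK, except GOLS1, at 8.33 RPKM in MOCK and 8.41 RPKM in WT. CBF2 (green) and 9 of 10 ZAT and AZF genes are highest in CHX.

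Mitochondrial retrograde stress genes, which respond when respiration is disturbed, depended on the scale. As deposited 2 of 16 were higher and 5 lower, and after scaling 6 were higher and 2 lower, so the list median changes sign with the scaling, at −0.51 and 0.30. DIC2, a dicarboxylate carrier, was at 685 RPKM in CHX, 57.4 RPKM in MOCK and 17.95 RPKM in WT. GSTU24 and GSTU25, glutathione transferases of the same response, were lower by 4.33 and 2.94. Tau class glutathione transferases, which detoxify foreign compounds, were lower in 12 of 22 cases and higher in 4, and after scaling lower in 7 and higher in 5. GSTU17 was at 1.1 RPKM in CHX and 124 RPKM in MOCK, and GSTU11 at 457 RPKM in CHX and 23.7 RPKM in MOCK.

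Hypoxia genes were lower in 11 of 17 cases, and in 10 after scaling, with a median of −2.90. LBD41, a transcription factor marker of low oxygen, was at 1.36 RPKM in CHX and 41.7 RPKM in MOCK, and PCO1, an oxidase that marks group VII factors for degradation, at 0.16 RPKM in CHX and 11.9 RPKM in MOCK. RBOHD, the NADPH oxidase of immune and hypoxia signalling, was higher, at 237 RPKM in CHX and 32.8 RPKM in MOCK.

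In abscisic acid signalling 4 of 22 genes were higher and 7 lower, against 13.3% and 44.1% of all described genes. The list median of −0.49 turns to 0.32 after scaling. ANAC055, a NAC transcription factor, was at 48.3 RPKM in CHX and 5.37 RPKM in MOCK. RD29B and RAB18, targets of the hormone, were at 0.092 RPKM in CHX against 8.31 RPKM in MOCK, and at 1.33 RPKM in CHX against 21.3 RPKM in MOCK.

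Nuclear genes of the photosystems were lower in 35 of 37 cases and in 22 after scaling, while none was higher. LHCB1.5 showed the lowest value at 117 RPKM in CHX and 1900 RPKM in MOCK, but its whole exon length overlaps another locus. PSBX was at 43.4 RPKM in CHX and 519 RPKM in MOCK, and PSAE-1 at 17.2 RPKM in CHX and 273 RPKM in MOCK. Calvin cycle and Rubisco genes were lower in 12 of 19 cases, and in 6 after scaling, with CP12-1, a regulator of the cycle, at 14.8 RPKM in CHX, 268 RPKM in MOCK and 572 RPKM in WT. None of the 43 described chloroplast-encoded transcripts was 2-fold apart in either direction as deposited, 2 were higher after scaling, and the median as deposited was −0.44. How libraries enriched for poly(A) RNA capture chloroplast transcripts was not tested. Their values are therefore not directly comparable with those of the nuclear genes.

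Photoreceptor genes were among the lower ones of the light list, in which 14 of 23 were lower and 2 higher as deposited, and 8 lower and 3 higher after scaling. PHYA was at 2.27 RPKM in CHX and 41.8 RPKM in MOCK, PHYB at 3.87 RPKM in CHX and 33.4 RPKM in MOCK, and CRY2 at 7.31 RPKM in CHX and 54.8 RPKM in MOCK. PIF5, a factor that phytochromes inactivate, was at 175 RPKM in CHX and 49.3 RPKM in MOCK. Clock genes had 4 of 22 higher and 5 lower as deposited, but 8 higher and 2 lower after scaling. BOA, a component of the evening loop, was at 24.7 RPKM in CHX and 2.81 RPKM in MOCK, with 46% of its exon length overlapped, and TIC, a clock regulator, was at 6.03 RPKM in CHX and 61.0 RPKM in MOCK.

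Known microRNA targets were lower in 26 of 39 cases, and in 13 after scaling, against 44.1% and 21.6% of all described genes. Another 26 targets lay under the minimum, and their direction is not part of these counts. ARF6 and ARF8, auxin response factors cut by miR167, were lower by 3.39 and 2.91. SPL13, a target of miR156, was at 90.08 RPKM in CHX and 11.4 RPKM in MOCK. Among the 39 described targets it was the 1 gene higher as deposited, and 2 were higher after scaling. Primary microRNA transcripts were lower at 8 of 10 described loci, with a median of −2.63. MIR850 was at 0.38 RPKM in CHX and 17.0 RPKM in MOCK.

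Counts of growth, nutrient and cell cycle genes stand against all described genes, of which 44.1% were lower as deposited and 21.6% after scaling. Alpha expansins, which loosen cell walls, were lower in 7 of 12 cases (5 after scaling), EXPA3 the most at 0.39 RPKM in CHX and 17.3 RPKM in MOCK. Nitrate genes were lower in 8 of 18 cases (5 after scaling), with the cytosolic glutamine synthetase gene GLN1;1 at 6.35 RPKM in CHX and 64.5 RPKM in MOCK, and BT1, a BTB and TAZ domain gene, higher at 241 RPKM in CHX and 20.8 RPKM in MOCK. Low-sugar genes were lower in 8 of 16 cases (4 after scaling), and ASN1, an asparagine synthetase gene, was the 1 gene higher as deposited, at 45.0 RPKM in CHX and 6.21 RPKM in MOCK. Gibberellin and brassinosteroid genes had 4 of 16 higher and 8 lower, and 6 and 4 after scaling, with CYP85A2, which makes brassinolide, at 0.18 RPKM in CHX and 14.1 RPKM in MOCK. Of 29 mitotic genes 22 lay under the minimum, and 3 of the other 7 were lower, or 1 after scaling. The counts of nitrate, low-sugar and mitotic genes lie near the shares of all genes and are no result about these lists.

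The factors of the NMD pathway differed little beyond the general shift. Of 10 described factors of NMD and the exon junction complex, 5 were lower as deposited and none was 2-fold apart after scaling, where the median was −0.25. UPF1 was at 19.2 RPKM in CHX and 29.4 RPKM in MOCK, UPF2 at 5.88 RPKM in CHX and 10.8 RPKM in MOCK, and UPF3 at 23.1 RPKM in CHX and 25.4 RPKM in MOCK. The junction core genes EIF4A-III, MAGO and Y14 were lower by 1.67, 1.57 and 1.46 on the log2 scale.

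SR genes encode splicing factors, and several of them are known to yield splice variants that NMD removes. Of 18 described, 12 were lower in CHX and RS31A alone was higher, at 18.4 RPKM in CHX and 5.48 RPKM in MOCK, with 29% of its exon length overlapped. After scaling SR30 remained 2-fold lower, at 3.51 RPKM in CHX and 24.4 RPKM in MOCK, and RS31A 2-fold higher. In lba1 upf3-1 against WT the same 18 genes had a median of 1.13, against −1.09 in the drug comparison and −0.28 in its scaled form. SCL33 was lower by 1.70 with the drug and higher by 2.43 in lba1 upf3-1, and RS40 was lower by 1.04 with the drug and higher by 2.58 in lba1 upf3-1. Gene totals do not separate splice variants, so these values say nothing of the share of any variant.

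**Figure D4:**
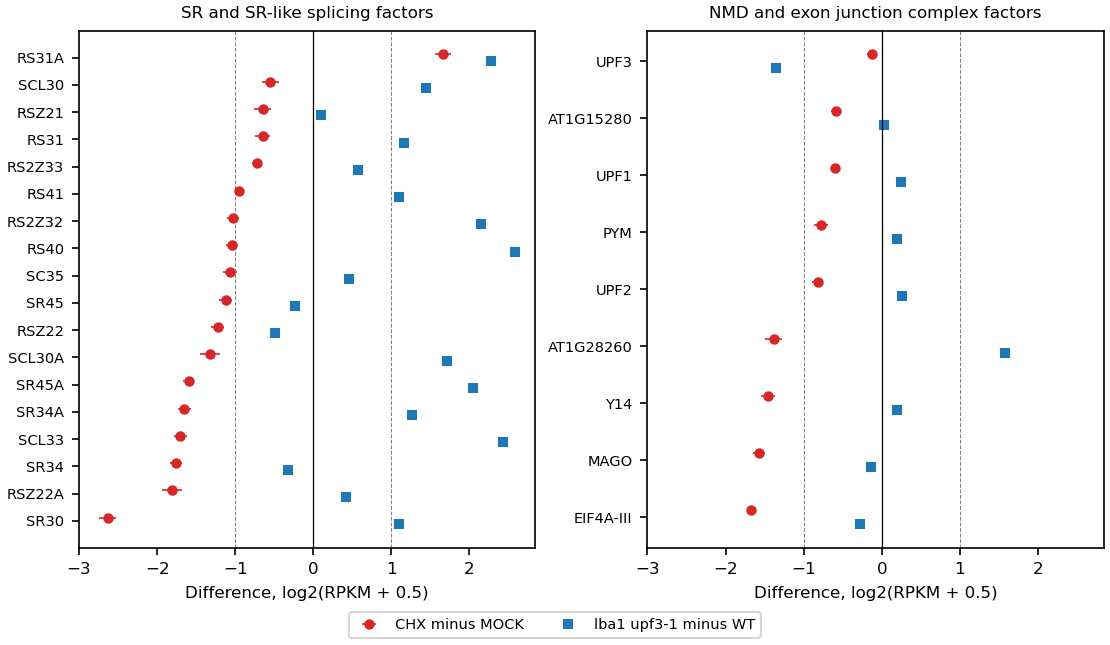
Differences on log2(RPKM + 0.5) for 18 SR genes and 9 NMD and exon junction complex genes, with CHX minus MOCK in red (bars are 95% counting intervals) and lba1 upf3-1 minus WT in blue. Most SR genes lie left of 0 in red and right of 0 in blue, and RS31A lies right of 1 in both.

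Autoregulated RNA-binding genes, a list that includes genes with NMD-linked splicing, were lower in 10 of 16 cases (5 after scaling). RBP47A was the lowest at 3.15 RPKM in CHX and 41.0 RPKM in MOCK. PTB1 was at 10.6 RPKM in CHX and 8.92 RPKM in MOCK, and was 2-fold higher after scaling, at 1.05. PTB2, TFIIIA and GRP7 were not lower after scaling, at 0.92, 0.19 and 0.03. In lba1 upf3-1 against WT, PTB1, PTB2 and TFIIIA were higher by 2.22, 1.34 and 2.29, and RBP47A and GRP7 lower by 1.02 and 1.03. Of 21 genes with conserved upstream open reading frames 13 lay under the minimum, and 5 of the other 8 were lower (4 after scaling). Among the 13, BZIP1, BZIP2, BZIP11, BZIP44 and BZIP53 were at 0 RPKM in all 6 columns. Whether such values come from the counting of reads was not tested, and the other 8 need not stand for the class. CIPK6, a protein kinase gene on that list, was at 27.5 RPKM in CHX and 201 RPKM in MOCK. VTC2, an enzyme of ascorbate synthesis, was at 9.05 RPKM in CHX and 60.0 RPKM in MOCK.

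General mRNA decay factors were lower in 11 of 21 cases, or 4 after scaling, near the 44.1% and 21.6% of all described genes, and higher in 2 on both scales. Both higher genes encode CAF1 deadenylases, which shorten poly(A) tails. CAF1A was at 1687 RPKM in CHX, against 57.7 RPKM in MOCK and 25.5 RPKM in WT, a difference of 4.86, and CAF1B was at 102 RPKM in CHX and 14.6 RPKM in MOCK. At the other end RRP4, an exosome subunit, was at 3.16 RPKM in CHX and 18.5 RPKM in MOCK, and AHG2, the poly(A) ribonuclease PARN, was lower by 2.28.

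Genes that were higher in the NMD mutants were then followed in the drug comparison, which shares no column with the mutant comparisons. At least 2-fold higher in all 3 mutants than in WT were 199 genes (1.41% of those described), of which 45 (22.6%) were also higher in CHX and 38 (19.1%) lower, against 13.3% higher and 44.1% lower over all described genes. Their median difference was −0.05 as deposited, against −0.81 for all described genes. Some of the 199 reached the minimum through the mutant columns in which they were selected. AT3G61198, for one, was at 1.598 RPKM in CHX, 0.565 RPKM in MOCK and 190.9 RPKM in lba1 upf3-1. The pseudocount pulls differences of such low genes towards 0, and without the filter the median over all loci was −0.057. How far this moves the median and the shares of lower genes in the mutant lists was not tested. After scaling 90 of the 199 (45.2%) were higher and 11 (5.53%) lower, against 23.4% and 21.6% of all described genes. These 45 genes made up 2.41% of the genes higher in CHX. In lba1 upf3-1, with no condition on the single mutants, 3105 genes (22.1%) were higher than in WT. Of these, 806 were higher in CHX, which is 25.96% of the mutant list and 43.1% of the CHX list. Another 1005 of the 3105 (32.4%) were lower in CHX. In upf3-1, with no condition on the other mutants, 536 genes (3.81%) were higher than in WT. Of these, 230 (42.9%) were higher and 101 (18.8%) lower in CHX. Some of the 536 went the other way in lba1, such as ERF105 and ZAT10, lower than in WT by 2.07 and 2.09. In lba1 672 genes (4.77%) were higher than in WT, of which 137 (20.4%) were higher and 172 (25.6%) lower in CHX. Higher in both lba1 and upf3-1 were 261 genes, of which 65 (24.9%) were higher and 57 (21.8%) lower in CHX.

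The genes with the highest CHX difference among the 199 included AT1G61460, a lectin receptor kinase-like gene, at 92.1 RPKM in CHX against 1.07 RPKM in MOCK, and at 13.1 RPKM in lba1 upf3-1 against 1.04 RPKM in WT. ACS8 was also among them, at 2.84 RPKM in lba1 upf3-1 against 0.46 RPKM in WT. AT5G22690, a TIR-NBS-LRR gene, was at 152 RPKM in CHX against 13.96 RPKM in MOCK, and at 22.4 RPKM in lba1 upf3-1 against 3.22 RPKM in WT. AT1G61460 and AT5G22690 were picked after their values had been seen.

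Pseudogenes and non-coding loci were described apart. Among 92 described pseudogenes 16 were higher and 34 lower as deposited, but 28 were higher and 14 lower after scaling. AT3G48650 was at 232 RPKM in CHX against 4.35 RPKM in MOCK, and at 170 RPKM in lba1 upf3-1 against 1.79 RPKM in WT, but at 0.49 RPKM in lba1. AT4G23215 was at 302 RPKM in CHX and 24.0 RPKM in MOCK. Of 60 loci annotated as other non-coding RNA 7 were higher and 37 lower (10 and 27 after scaling), and AT1G11185 stood highest at 132 RPKM in CHX and 3.69 RPKM in MOCK. Of 18 long non-coding loci 3 were higher and 9 lower (6 and 6 after scaling), with AT1G20515 at 49.2 RPKM in CHX and 0.70 RPKM in MOCK, where 51.1% of the exon length overlaps another locus. AT1G11185 and AT1G20515 were less than 2-fold apart between lba1 upf3-1 and WT, at differences of 0.80 and 0.18.

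Transcript structure was compared with the response for 13804 protein-coding genes. Genes without introns were higher in 25.98% of cases, those with 1 or 2 introns in 14.4%, those with 3 to 9 in 11.1% and those with 10 or more in 7.53%. Accordingly 32.4% of the genes at least 4-fold higher had no intron, against 13.8% of all described coding genes. Genes without introns were also 18.4% of those at least 4-fold lower. The share of lower genes was 44.1% without introns, 51.4% with 1 or 2, 43.7% with 3 to 9 and 35.2% with 10 or more, and the medians were −0.71, −1.05, −0.81 and −0.65 in the same order. Upstream reading frames and introns in the 3′ untranslated region are features that can expose an mRNA to NMD. With no upstream reading frame 13.9% of genes were higher, with 1 it was 12.7%, and with 2 or more 13.0%. Of 328 genes with an intron at least 50 bases after the stop codon 9.15% were higher, against 13.4% of the others. Lower were 36.9% of the genes with such an intron and 44.3% of the others, with medians of −0.66 and −0.81. Thus genes with such an intron were called less often in either direction, and genes with few introns more often in both than genes with 10 or more.

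The 250 bases before the annotated start of each gene were searched on both strands for short motifs. TTGACT and TTGACC, forms of the W-box bound by WRKY factors, were found in 30.1% and 20% of the promoters of genes at least 4-fold higher, in 19.3% and 12.5% of those of all described genes, and in 19.0% and 12.2% of all 27561 promoters. CGCGTT, the core of the rapid stress response element bound by CAMTA factors, was found in 9.05% of the promoters of genes at least 4-fold higher, in 3.115% of described promoters and in 2.58% of all. GAANNTTC, the core of the heat shock element, was in 16.5% of the promoters of genes at least 4-fold higher, in 9.58% of described promoters and in 9.55% of all. The GCC box GCCGCC, bound by ERF factors, showed no such difference, at 1.79%, 2.01% and 1.88% of the same sets. The G-box CACGTG was in 9.85%, 7.69% and 6.46% of them. Shares lay closer together for TGTCTC, the auxin response element (11.1%, 10.2% and 10.9%), for AAAATATCT, the evening element of clock genes (3.68%, 2.62% and 2.36%), and for CCGAC, the core bound by CBF factors (12.1%, 13.2% and 11.97%).

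TGGGCC, the site II element of ribosomal and mitochondrial gene promoters, was less frequent where genes were at least 4-fold higher, at 7.36%, and was found in 21.1% of promoters of genes at least 4-fold lower, in 17.7% of described promoters and in 13.6% of all. AAACCCTA, the telo box, was in 2.09% of the first set, 4.91% of the second, 3.41% of described promoters and 4.47% of all. Of the 54 cytosolic ribosomal protein genes 31 held TGGGCC and 13 AAACCCTA, and of the 36 ribosome biogenesis genes 24 held TGGGCC. Both W-box forms share their leading bases, and none of the other motifs holds another.

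**Figure D5:**
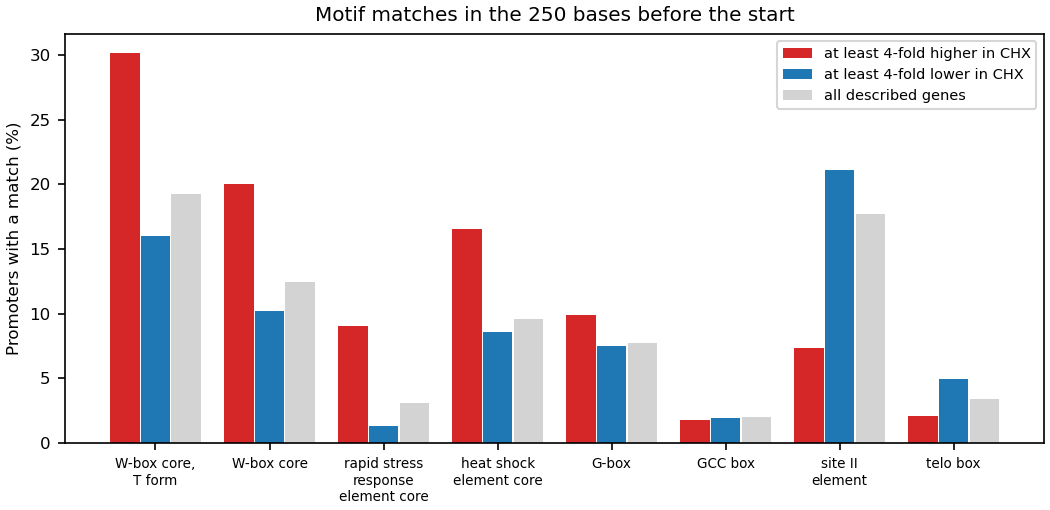
Share of promoters (y axis, percent) with at least 1 match to each of 8 motifs in the 250 bases before the annotated start, for genes at least 4-fold higher in CHX (red), at least 4-fold lower in CHX (blue) and all described genes (grey). W-box, rapid stress response and heat shock cores are most frequent in the red set, and the site II element and telo box in the blue set.

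The promoters below show what such matches look like in genes of either kind, and were chosen after their letters and values had been seen because they hold matches. They are the 250 bases before the start in the RefSeq TAIR10.1 assembly, written 5′ to 3′ on the strand of the gene, and a match is a description, not a binding site. Capitals mark both W-box forms and the rapid stress response core, or their reverse complements, in the promoters of BHLH92 (chr5:17534797-17535046, minus strand), WRKY30 (chr5:8154711-8154960, minus strand), CBF2 (chr4:13016236-13016485, minus strand) and ACS8 (chr4:17751829-17752078, plus strand), whose differences were 9.34, 5.53, 5.46 and 4.40.
BHLH92: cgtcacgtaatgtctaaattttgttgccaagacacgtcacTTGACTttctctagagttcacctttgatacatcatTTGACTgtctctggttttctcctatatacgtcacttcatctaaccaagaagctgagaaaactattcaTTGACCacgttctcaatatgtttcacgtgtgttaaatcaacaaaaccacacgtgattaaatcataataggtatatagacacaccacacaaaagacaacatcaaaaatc
WRKY30: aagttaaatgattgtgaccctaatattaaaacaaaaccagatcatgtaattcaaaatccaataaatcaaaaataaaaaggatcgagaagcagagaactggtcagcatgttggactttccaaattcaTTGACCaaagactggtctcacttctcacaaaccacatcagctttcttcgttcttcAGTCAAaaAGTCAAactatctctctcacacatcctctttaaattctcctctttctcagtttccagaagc
CBF2: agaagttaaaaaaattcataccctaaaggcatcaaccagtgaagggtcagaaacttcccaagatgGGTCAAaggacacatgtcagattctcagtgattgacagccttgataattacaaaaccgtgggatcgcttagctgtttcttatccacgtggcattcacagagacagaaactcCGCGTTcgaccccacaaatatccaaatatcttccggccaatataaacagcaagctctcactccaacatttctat
ACS8: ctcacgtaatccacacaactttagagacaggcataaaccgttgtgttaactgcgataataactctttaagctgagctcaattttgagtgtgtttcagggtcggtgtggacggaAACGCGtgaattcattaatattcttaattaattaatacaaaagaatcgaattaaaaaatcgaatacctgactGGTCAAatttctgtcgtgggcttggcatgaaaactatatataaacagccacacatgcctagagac

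BHLH92 and WRKY30 each held TTGACC once and TTGACT at 2 places, and CBF2 and ACS8 each held 1 TTGACC and 1 CGCGTT. For the low genes, capitals mark TGGGCC or AAACCCTA, or their reverse complements, in the promoters of the small subunit gene RPS10B (chr5:16610693-16610942, minus strand), the fibrillarin gene FIB1 (chr5:21293897-21294146, plus strand) and AT5G15200, a ribosomal protein S4 gene (chr5:4936430-4936679, minus strand), whose differences were −3.79, −3.72 and −3.60.
RPS10B: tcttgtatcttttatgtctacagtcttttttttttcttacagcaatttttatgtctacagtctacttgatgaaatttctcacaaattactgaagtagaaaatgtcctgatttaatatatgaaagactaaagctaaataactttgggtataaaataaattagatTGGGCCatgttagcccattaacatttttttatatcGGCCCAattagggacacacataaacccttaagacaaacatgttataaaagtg
FIB1: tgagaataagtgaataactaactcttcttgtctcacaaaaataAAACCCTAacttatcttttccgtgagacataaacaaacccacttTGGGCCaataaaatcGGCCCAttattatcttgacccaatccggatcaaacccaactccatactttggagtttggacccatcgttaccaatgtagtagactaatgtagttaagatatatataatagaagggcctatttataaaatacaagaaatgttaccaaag
AT5G15200: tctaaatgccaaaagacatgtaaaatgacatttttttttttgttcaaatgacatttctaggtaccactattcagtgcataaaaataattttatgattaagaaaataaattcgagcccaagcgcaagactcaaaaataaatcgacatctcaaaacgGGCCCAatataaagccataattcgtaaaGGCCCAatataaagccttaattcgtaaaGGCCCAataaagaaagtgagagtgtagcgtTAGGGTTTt

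RPS10B held TGGGCC at 2 places, FIB1 at 2 and AT5G15200 at 3, and FIB1 and AT5G15200 each held 1 AAACCCTA.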

How the data were processed

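The authors deposited gene expression as RPKM values (reads per kilobase, relative to library size) for 33602 loci, in 1 pooled column for each of 6 groups of 2 libraries, made with a TruSeq RNA kit per the labels. Per the submitters' processing notes, TAIR10 was used. The sources used here do not state the aligner, the counting rules or the pooling step. The planned limma fit needs a column per library and could not be run. Differences of log2(RPKM + 0.5) were computed with Python 3.11.15, pandas 2.3.3 and numpy 2.4.6 where a gene averaged 5 RPKM or more. A gene is called at 2-fold, which is a rule of size. The steps were tested on simulated data.

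Depth was estimated from 623 transfer RNA loci, whose values up to 8 reads were whole multiples of 1 step in 94.2% to 97.4% of cases within 0.05 of a read plus rounding. It sets the 95% Poisson intervals, which cover counting error only. Names, classes, overlaps, transcript features and promoters came from the RefSeq TAIR10.1 annotation, in which 32835 loci were found.

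The genes and the 42 lists, with 1012 of 1067 listed names found, were chosen with earlier results of these data known. Named genes were the 12 highest and 12 lowest, up to 4 members of each list (the 3 largest differences in the direction of its median and the largest the other way), all NMD, exon junction and SR genes, the 6 most abundant genes in CHX and up to 10 of each non-coding class. Some were left out for length, and some are not reported here. Genes named beyond the rule, such as CAF1B, RPL18AA, RBCS1A and those of the printed promoters, were chosen after their values were seen.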

Additional observations from a re-analysis of the deposited data

How the results depend on the processing

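The counts of 1870 higher and 6209 lower genes became 3293 and 3040 after median scaling and 2843 and 3215 after quantile normalization, and the number higher became 3105 with no filter on low values. Under the other 7 settings each count remained within 1.5 times its value. List medians within 2-fold could change sign after median scaling, as those of the abscisic acid and mitochondrial retrograde lists did. No list median past 2-fold and no named gene past 2-fold changed sign, except with WT in the place of MOCK. There the median of Small heat shock proteins was 1.195, and the differences were 0.015 for TBP1, 0.13 for ST2A, 0.70 for AT5G51440, 1.04 for GSTU25, 1.27 for NDB2, 1.23 for EXPA16, −0.39 for EXPA15 and 0.071 for GDH2. The cause was not tested. Named differences moved by more than their counting interval for 213 of 231 genes under quantile normalization, and for at most 106 with another pseudocount. The median difference of all genes lay between −0.86 and −0.06 over the settings other than median scaling. No paired analysis was possible because each group has 1 pooled column, and leaving out a library could not be run for the same reason. Depth limits low genes: 3 reads at 1 kb correspond to 0.035 RPKM in CHX, so that levels near that are at the floor. All values are gene totals, without strand and without splice variants.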
